A study of Homo sapiens with 12 samples.

Results

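The 36 genes described here encode the cytosolic and mitochondrial aminoacyl-tRNA synthetases, of 56747 gene identifiers held in both count tables of the series. They were taken by name, as the enzymes of this family, from a list made with earlier results of these data known. All 36 were found, 20 cytosolic enzymes and 16 mitochondrial enzymes whose symbols end in 2. Aminoacyl-tRNA synthetases join each amino acid to its transfer RNA and so supply ribosomes with their substrates. The nuclear genome encodes a set for the cytosol and a largely separate set, imported into mitochondria, for the mitochondrial ribosome. Many cytosolic synthetases are known targets of ATF4, the transcription factor of the amino acid response, which binds with C/EBP partners when amino acids run short or other stresses phosphorylate eIF2α.

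RNA was sequenced from 2 human prostate cancer lines, labelled C4-2 and DU145, treated with palbociclib, an inhibitor of the cell cycle kinases CDK4 and CDK6, or with the solvent dimethyl sulfoxide (DMSO). All groups were cultured in RPMI-1640 medium containing fetal bovine serum, and the sources used here give neither the dose nor the duration of palbociclib. There were 3 libraries each of C4-2 with palbociclib, DU145 with palbociclib and DU145 with DMSO, and 2 of C4-2 with DMSO, since the column of C4-2 DMSO replicate 3 held only zeros and was left out. Nothing in the labels ties the replicates of a group to separate cultures, so every p-value reflects differences between libraries that may be technical only.

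Total counts were 2608851 to 3489659 per library in the C4-2 table and 16108999 to 16674393 in the DU145 table, so a synthetase of low level was measured with fewer counts in C4-2. In DU145 the libraries numbered 3 stood apart, with a chi-square over degrees of freedom of 5.41 to 8.34 against the other libraries of their group, compared with 2.36 to 2.37 between replicates 1 and 2. In C4-2 the same measure was 1.14 to 1.18 within groups, where counting noise alone gives 1, so the small p-values there rest on libraries that differ little beyond counting noise. The luminal prostate markers KLK3, KLK2, ACP3 and FOLH1 had 0 counts in all 5 libraries labelled C4-2, which goes against a label of an LNCaP-derived line, while FN1, a fibronectin gene of mesenchymal cells, stood at 20880 ± 69.8 CPM (counts scaled to the library total; SD, n = 2) with DMSO. These libraries are therefore called by their label only. Leukocyte and endothelial markers summed to at most 4.22 CPM in any library labelled C4-2 and 9.72 CPM in any DU145 library.

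Promoters were searched for the letters TGATGNAA, the composite element of ATF4 and C/EBP, on both strands in the RefSeq window of 250 bases before to 50 bases after the gene start (build GRCh38.p14). Of 36 members 30 had a promoter entry, 16 cytosolic and 14 mitochondrial. The element was found in 6 of the 16 cytosolic promoters (37.5%), in 1 of the 14 mitochondrial ones (7.1%) and in 3.62% of 35116 promoters of that length. The stretches are shown because these are the members whose promoter letters the expression values below can be set beside. Each is 30 bases of the gene's own strand, 5′ to 3′, with the matched letters in capitals.
AARS: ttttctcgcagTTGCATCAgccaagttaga
CARS: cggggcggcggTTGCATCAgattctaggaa
IARS: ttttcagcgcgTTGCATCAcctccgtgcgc
MARS: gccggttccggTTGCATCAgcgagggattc
NARS: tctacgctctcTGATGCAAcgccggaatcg
TARS: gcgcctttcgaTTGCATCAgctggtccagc
YARS2: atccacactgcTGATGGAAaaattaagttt
All 6 cytosolic matches have the form TGATGCAA or its reverse complement TTGCATCA, which is in 0.866% of all promoters. This form was singled out after the sequences were seen. YARS2, the mitochondrial tyrosyl enzyme, has G in place of that variable base. With the start counted as base 1, the match lies at -13 to -6 in IARS, -4 to 4 in MARS, -2 to 6 in CARS, 3 to 10 in TARS and 15 to 22 in NARS. In AARS it lies farther away, at -187 to -180, and in YARS2 at -197 to -190. The stretches of AARS (chr16:70289675-70289704), CARS (chr11:3057407-3057436), IARS (chr9:92293692-92293721) and NARS (chr18:57621804-57621833) are on the minus strand, as is that of YARS2 (chr12:32756076-32756105). Those of MARS (chr12:57488053-57488082) and TARS (chr5:33440956-33440985) are on the plus strand. Over the 30 promoters together, the other motifs searched were rarer. In the 14 mitochondrial promoters the order differed, with the E-box in 3 (21.4%) and each other motif, TGATGNAA included, in 1 (7.1%). The E-box CACGTG was in the promoters of IARS, CARS2, EARS2 and MARS2 (7.26% of all promoters), the E2F motif GCGGGAA in AARS and RARS2 (6.55%), and the interferon-stimulated response element in EARS2 alone (3.57%). A match describes letters and not a bound site.

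In the libraries labelled C4-2, most cytosolic synthetases rose with palbociclib while most mitochondrial ones fell. Of 20 cytosolic genes, 13 rose, 4 fell (FARSA, FARSB, HARS and KARS) and 3 were not called (QARS, RARS and VARS), with a median log2 fold change of 0.36. The threshold was an adjusted p of 0.05 in edgeR's quasi-likelihood test over 11943 genes, of which 25.2% were called higher and 26.6% lower, with a median of 0.001. Of 16 mitochondrial genes, 14 had enough counts to be tested. PARS2 and RARS2 rose, 9 fell, and CARS2, FARS2 and MARS2 were not called, with a median of -0.41. The plot of fold changes by gene shows both groups and both lines.

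**Figure D1:**
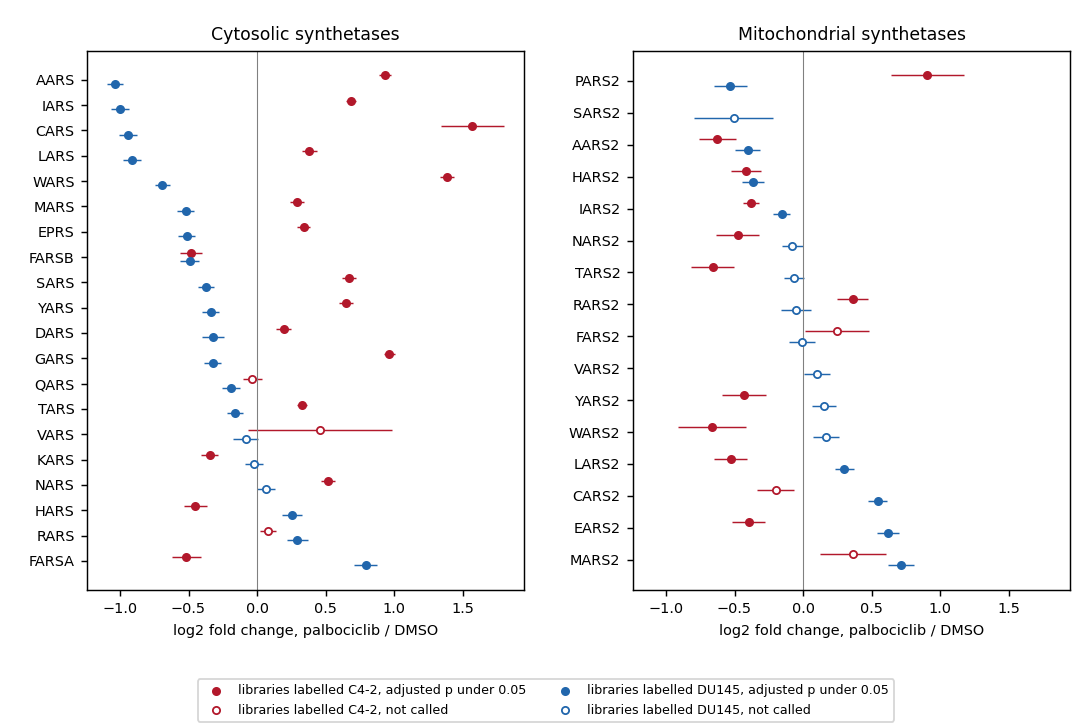
Log2 fold change of palbociclib over DMSO (x axis) for each synthetase gene (y axis), cytosolic left and mitochondrial right. Red points are libraries labelled C4-2 and blue points DU145, bars are standard errors, and filled points passed an adjusted p of 0.05. In the cytosolic panel 13 filled red points lie above 0 and 14 filled blue points below it.

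WARS, the tryptophanyl enzyme (ENSG00000140105, chr14:100333788-100376805), stood at 470, 504 and 476 CPM with palbociclib and 193 and 163 CPM in the DMSO libraries in the libraries labelled C4-2. The palbociclib libraries were all above the DMSO libraries, with a log2 fold change of 1.38 (SE 0.05, edgeR adjusted p = 7.97e-25). WARS is also known to be induced by interferon. GARS, the glycyl enzyme, whose gene also supplies mitochondria (ENSG00000106105, chr7:30594681-30634033), stood at 719, 736 and 734 CPM against 364 and 360 CPM. Its groups were far apart relative to their spread, and its change was 0.96 (SE 0.04, edgeR adjusted p = 1.95e-24).

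AARS, the alanyl enzyme (ENSG00000090861, chr16:70252295-70289543), stood at 609, 584 and 585 CPM with palbociclib and 293 and 309 CPM in the DMSO libraries in the libraries labelled C4-2, a log2 change of 0.93 (SE 0.04, edgeR adjusted p = 1.96e-22). CARS, the cysteinyl enzyme (ENSG00000110619, chr11:3000922-3057613), had the highest fitted rise, 1.57 (SE 0.23, edgeR adjusted p = 2.60e-07), and the least even libraries of the called members. It stood at 65.1, 43.7 and 24.3 CPM against 15.2 and 12.9 CPM, from 39 to 188 counts per library. Its groups did not overlap, but palbociclib replicate 1 was 2.68 times replicate 3, whereas that ratio of highest to lowest was at most 1.7 in the 32 other tested members apart from VARS. IARS, the isoleucyl enzyme, had 722, 724 and 711 CPM against 425 and 442 CPM (0.68, SE 0.04), and LARS, the leucyl enzyme, had 277, 258 and 265 CPM against 196 and 201 CPM (0.38, SE 0.05). Both were higher in all 3 palbociclib libraries.

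The other cytosolic members that rose in the libraries labelled C4-2 were SARS (0.67), YARS (0.65), NARS (0.52), EPRS (0.34), TARS (0.33), MARS (0.29) and DARS (0.19), the enzymes for serine, tyrosine, asparagine, glutamate with proline, threonine, methionine and aspartate. The call of DARS was lost without DMSO replicate 2 (0.13, edgeR adjusted p = 0.111). MARS shares 355 exon bases with DDIT3, the stress transcription factor CHOP on the opposite strand, and the C4-2 counting used no strand setting. DDIT3 went from 9.91 to 37.5 CPM there and MARS from 208.1 to 262.2 CPM, and the part of shared reads was not tested.

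The 4 cytosolic genes that fell in the libraries labelled C4-2 include both subunits of the phenylalanyl enzyme. FARSA, the catalytic subunit (ENSG00000179115, chr19:12922479-12934037), stood at 45.7, 46.0 and 41.1 CPM with palbociclib and 59.0 and 63.3 CPM in the DMSO libraries, a change of -0.52 (SE 0.10, edgeR adjusted p = 5.24e-05). FARSB, the other subunit, changed by -0.48 and HARS, the histidyl enzyme, by -0.45. KARS, the lysyl enzyme, whose gene also supplies mitochondria, stood at 171, 207 and 187 CPM against 223 and 240 CPM, a change of -0.35 (SE 0.06). In each of these 4 genes all palbociclib libraries were below both DMSO libraries. QARS, the glutaminyl enzyme, was at -0.03 (edgeR adjusted p = 0.711) and RARS, the arginyl enzyme, at 0.08 (edgeR adjusted p = 0.273).

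Mitochondrial synthetases were measured at lower levels in the libraries labelled C4-2. TARS2, the threonyl enzyme, stood at 15.9, 21.9 and 18.9 CPM with palbociclib and 26.4 and 31.5 CPM in the DMSO libraries (-0.66, SE 0.16). AARS2 had 26.6, 21.9 and 23.1 CPM against 33.5 and 38.1 CPM (-0.63, SE 0.14), and LARS2 had 38.1, 32.2 and 31.1 CPM against 43.3 and 51.4 CPM (-0.53, SE 0.12). These are the alanyl and leucyl enzymes of the organelle, and in all 3 genes the groups were separate. EARS2, the glutamyl enzyme, had 35.3, 33.4 and 32.9 CPM against 39.8 and 46.8 CPM (-0.40, SE 0.12). WARS2 had 7.96, 5.75 and 9.77 CPM against 14.6 and 9.62 CPM (-0.66, SE 0.25), so that its groups overlapped. NARS2 (-0.48), YARS2 (-0.43), HARS2 (-0.42) and IARS2 (-0.38) also fell.

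Of the 2 mitochondrial genes that rose in the libraries labelled C4-2, PARS2, the prolyl enzyme, stood at 10.0, 10.7 and 12.1 CPM with palbociclib against 6.30 and 4.97 CPM in the DMSO libraries (0.91, SE 0.26). RARS2, the arginyl enzyme, changed by 0.36 (SE 0.11). MARS2 had 12.1, 8.82 and 12.4 CPM against 8.31 and 8.62 CPM (0.36, edgeR adjusted p = 0.209), and CARS2 had 30.1, 26.8 and 32.9 CPM against 29.5 and 38.1 CPM (-0.20, edgeR adjusted p = 0.221). FARS2 was at 0.25 (edgeR adjusted p = 0.391).

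Several mitochondrial calls in the libraries labelled C4-2 lay near the threshold and were lost when 1 library was left out, mostly at a similar fold. WARS2 was not called without palbociclib replicate 2 (-0.50, edgeR adjusted p = 0.125) or DMSO replicate 1 (-0.32, edgeR adjusted p = 0.472). YARS2, at -0.35 to -0.46, was not called without any single library other than palbociclib replicate 1 (edgeR adjusted p = 0.072 and 0.107 without palbociclib replicates 2 and 3, and 0.0703 and 0.0858 without DMSO replicates 1 and 2). NARS2 (-0.43) and RARS2 (0.33) lost their calls without DMSO replicate 1 (edgeR adjusted p = 0.0907 and 0.0678), and EARS2 (-0.29) and PARS2 (0.75) without DMSO replicate 2 (edgeR adjusted p = 0.117 and 0.0547). DESeq2 called 4 mitochondrial members lower (AARS2, IARS2, LARS2 and TARS2) where edgeR called 9, did not call PARS2 or RARS2, and called 12 cytosolic members higher.

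VARS and VARS2, the cytosolic and mitochondrial valyl enzymes, lie in the major histocompatibility complex region of chromosome 6 (VARS at chr6:31777518-31795953, VARS2 at chr6:30908242-30926459), for which the genome carries alternative haplotype sequences. In the libraries labelled C4-2, VARS had 4, 5 and 32 counts with palbociclib and 18 and 3 with DMSO (1.38, 1.92 and 9.47 CPM against 5.16 and 0.995 CPM). The groups overlapped, and its fitted change of 0.46 (SE 0.52, edgeR adjusted p = 0.485) became -0.23 without DMSO replicate 2 and 2.10 without DMSO replicate 1 (edgeR adjusted p = 0.0265). VARS2 had 0 counts in all 5, a limit of 0.86 to 1.15 CPM for a library of that depth, and was not tested. In DU145 the same genes were well measured. VARS had 201, 196 and 240 CPM with palbociclib and 224, 206 and 255 CPM in the DMSO libraries (-0.09, edgeR adjusted p = 0.427), and VARS2 had 31.3, 31.3 and 37.1 CPM against 30.85, 30.03 and 33.66 CPM (0.10, edgeR adjusted p = 0.379). Both pairs of groups overlapped. VARS passed without DU145 palbociclib replicate 3 (-0.18, edgeR adjusted p = 0.0365). Of 20 protein-coding genes from VARS2 to VARS with at least 5 CPM in DU145, 3 had 0 counts in the C4-2 table (15%), against 1.54% of 10375 such genes in all. VARS2 is among the 3 and bounds the stretch, so the 15% was in part set by that choice. SARS2, the mitochondrial seryl enzyme, had 3 to 8 counts per C4-2 library and was not tested there. In DU145 it had 25 to 68 counts (-0.51, edgeR adjusted p = 0.142) and passed only without DMSO replicate 1 (-0.76, edgeR adjusted p = 0.0284). It shares 46.2% of its exon bases with a same-strand gene, and the part of reads left unassigned for that reason was not tested.

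In DU145 the cytosolic synthetases moved the opposite way. Of 20 cytosolic genes, 14 fell with palbociclib, 3 rose (FARSA, HARS and RARS) and 3 were not called (KARS, NARS and VARS), with a median log2 fold change of -0.33. Over the 15361 genes tested, 28.8% were called higher and 29.2% lower, with a median of -0.007. Of the 16 mitochondrial genes, 4 rose (CARS2, EARS2, LARS2 and MARS2), 4 fell (AARS2, HARS2, IARS2 and PARS2) and 8 were not called, with a median of -0.03, both shares under that background. Without both libraries numbered 3, the counts were the same in all 4 cases, 14 and 3 cytosolic and 4 and 4 mitochondrial.

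AARS stood at 444, 444 and 463 CPM with palbociclib and 930, 917 and 969 CPM in the DMSO libraries in DU145, a log2 fold change of -1.04 (SE 0.06, edgeR adjusted p = 1.29e-10). IARS (ENSG00000196305, chr9:92210207-92293756) had 264, 257 and 226 CPM against 508, 522 and 492 CPM (-1.002, SE 0.07, edgeR adjusted p = 8.35e-10). The groups of both genes were wide apart, and these were the only 2 of the 36 members whose fall in DU145 passed 2-fold.

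CARS had 87.6, 86.2 and 83.4 CPM with palbociclib and 160, 174 and 168 CPM in the DMSO libraries in DU145 (-0.94, SE 0.07), an even set of libraries in contrast to C4-2. LARS (ENSG00000133706, chr5:146113038-146182660) had 127, 122 and 110 CPM against 231, 236 and 219 CPM (-0.91, SE 0.07). WARS had 423, 413 and 399 CPM against 678, 684 and 666 CPM (-0.69, SE 0.06). GARS had 280.9, 281.9 and 249.1 CPM against 350, 341 and 342 CPM (-0.32, SE 0.06). The palbociclib libraries of these 4 genes were all below the DMSO libraries.

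The other cytosolic falls in DU145 were MARS (-0.52), EPRS (-0.51), FARSB (-0.49), SARS (-0.38), YARS (-0.34), DARS (-0.32), QARS (-0.19) and TARS (-0.16). QARS lost its call without DMSO replicate 3 and without palbociclib replicate 1 or 2 (edgeR adjusted p = 0.0674, 0.06 and 0.0763), and TARS without DMSO replicate 2 and without palbociclib replicate 2 or 3 (edgeR adjusted p = 0.115, 0.0506 and 0.0686). KARS stood at 162, 153 and 148 CPM with palbociclib and 155, 160 and 162 CPM in the DMSO libraries, overlapping groups with a change of -0.02 (edgeR adjusted p = 0.779). NARS was at 0.06 (edgeR adjusted p = 0.407).

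FARSA was the cytosolic member with the largest rise in DU145, at 226, 238 and 272 CPM with palbociclib and 140, 133 and 160 CPM in the DMSO libraries (0.79, SE 0.08, edgeR adjusted p = 3.47e-07). The groups did not overlap, and its partner subunit FARSB fell in the same libraries. RARS (0.29) and HARS (0.26) also rose. HARS and HARS2 lie head to head and share 437 exon bases on opposite strands. HARS rose and HARS2 fell (-0.36) in DU145, and both fell in C4-2.

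Among mitochondrial members of DU145, MARS2, the methionyl enzyme, had 25.5, 28.5 and 25.9 CPM with palbociclib and 17.01, 16.66 and 15.86 CPM in the DMSO libraries (0.71, SE 0.10). EARS2 had 51.4, 51.1 and 49.2 CPM against 32.8, 32.9 and 34.7 CPM (0.62, SE 0.08), and CARS2 had 109.7, 107.4 and 116.9 CPM against 74.5, 79.4 and 79.3 CPM (0.54, SE 0.07). In all 3, every palbociclib library was above every DMSO library. LARS2 had 71.7, 73.3 and 77.4 CPM against 60.4, 60.9 and 62.3 CPM (0.30, SE 0.07).

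The mitochondrial falls in DU145 were led by PARS2, at 9.597, 9.826 and 8.996 CPM with palbociclib and 12.7, 14.0 and 15.1 CPM in the DMSO libraries (-0.53, SE 0.12). AARS2 had 26.2, 32.2 and 31.1 CPM against 38.5, 39.9 and 42.1 CPM (-0.40, SE 0.09). HARS2 (-0.36) fell too, as did IARS2 (-0.16), whose call was lost in 5 of 6 fits that left out 1 library, each of them except that without palbociclib replicate 3 (edgeR adjusted p = 0.0904 and 0.0795 without palbociclib replicates 1 and 2, and 0.0725, 0.0733 and 0.0509 without DMSO replicates 1, 2 and 3). TARS2 had 82.3, 86.9 and 91.3 CPM against 91.8, 89.3 and 96.0 CPM, and WARS2 had 40.6, 33.6 and 33.6 CPM against 34.0, 34.1 and 29.8 CPM, both with overlapping groups. Their changes were -0.07 (edgeR adjusted p = 0.452) and 0.16 (edgeR adjusted p = 0.143). YARS2 (0.15), NARS2 (-0.08), RARS2 (-0.05) and FARS2 (-0.01) were not called either.

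**Figure D2:**
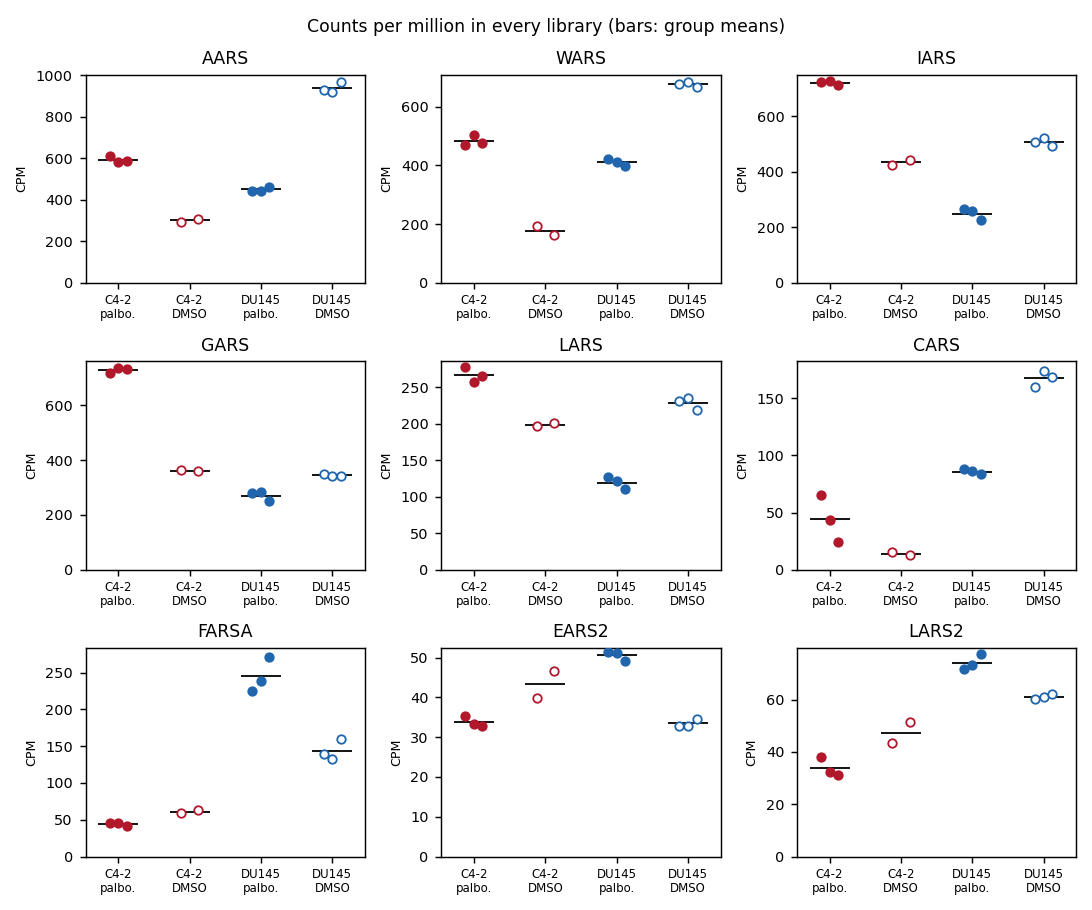
CPM (y axis, from 0) of 9 synthetase genes in every library, by line and treatment (x axis). Filled points are palbociclib, open points DMSO, and bars group means. AARS stands at 584 to 609 against 293 to 309 in the libraries labelled C4-2 and at 444 to 463 against 917 to 969 in DU145, while FARSA, EARS2 and LARS2 move the other way in each line.

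The difference of response between lines was tested as an interaction, the log2 fold change in DU145 minus that in C4-2, over 18139 genes, of which 18.4% had a significantly higher change in DU145 and 15% a significantly lower one. The median over all genes was -0.02. Only 11007 genes were tested in both lines when each was fitted alone. These shares and this median therefore include genes with few or 0 counts in 1 line. Of 20 cytosolic members, 13 had the lower change in DU145, 3 the higher (FARSA, HARS and KARS) and 4 were not called, with a median of -0.65. Of the 15 mitochondrial members that could be assessed, VARS2 being left out for its 0 counts, 1 had the lower change in DU145 (PARS2), 7 the higher and 7 were not called, with a median of 0.43. SARS2, with 3 to 8 counts per C4-2 library, is among those not called (0.50, SE 0.70). It entered this fit although it was not tested in C4-2 alone. A set of 12 cytosolic genes was called higher in C4-2 and lower in DU145 (AARS, CARS, DARS, EPRS, GARS, IARS, LARS, MARS, SARS, TARS, WARS and YARS), as was PARS2, a pattern of 7.43% of the 11007 genes tested in both lines. FARSA, HARS, EARS2 and LARS2 were called lower in C4-2 and higher in DU145, the pattern of 8.87% of those genes.

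The interaction was -2.48 for CARS (SE 0.26, edgeR adjusted p = 4.08e-09), -2.05 for WARS (SE 0.09, edgeR adjusted p = 9.27e-18), -1.93 for AARS (SE 0.08, edgeR adjusted p = 1.87e-18) and -1.65 for IARS (SE 0.09, edgeR adjusted p = 4.31e-16). In the opposite direction it was 1.34 for FARSA (SE 0.15, edgeR adjusted p = 6.93e-09), 1.05 for EARS2 (SE 0.15), 0.86 for LARS2 (SE 0.15) and 0.86 for WARS2 (SE 0.28, edgeR adjusted p = 0.0149). The call of WARS2 was lost without C4-2 palbociclib replicate 2 (0.69, edgeR adjusted p = 0.0689) or C4-2 DMSO replicate 1 (0.51, edgeR adjusted p = 0.351). Without C4-2 DMSO replicate 2, KARS (0.32, edgeR adjusted p = 0.0543) and TARS2 (0.52, edgeR adjusted p = 0.0697) were not called. IARS2 (0.25) was not called in 5 of 11 fits that left out 1 library, those without C4-2 palbociclib replicate 1, C4-2 DMSO replicates 1 and 2, DU145 palbociclib replicate 2 and DU145 DMSO replicate 1 (edgeR adjusted p = 0.102, 0.126, 0.0619, 0.0571 and 0.0618). It was not called either with RLE size factors, library totals, no filter, a stricter filter or DESeq2 (adjusted p = 0.0786, 0.218, 0.0583, 0.0633 and 0.0558), so its difference between lines is not firm. FARSB fell in both lines, with an interaction of 0.02 (SE 0.12, edgeR adjusted p = 0.971), so the 2 subunits of the phenylalanyl enzyme differed in how their responses compared between lines. AARS2, HARS2 and IARS2 also fell in both lines, as did 8.67% of the genes tested in both.

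**Figure D3:**
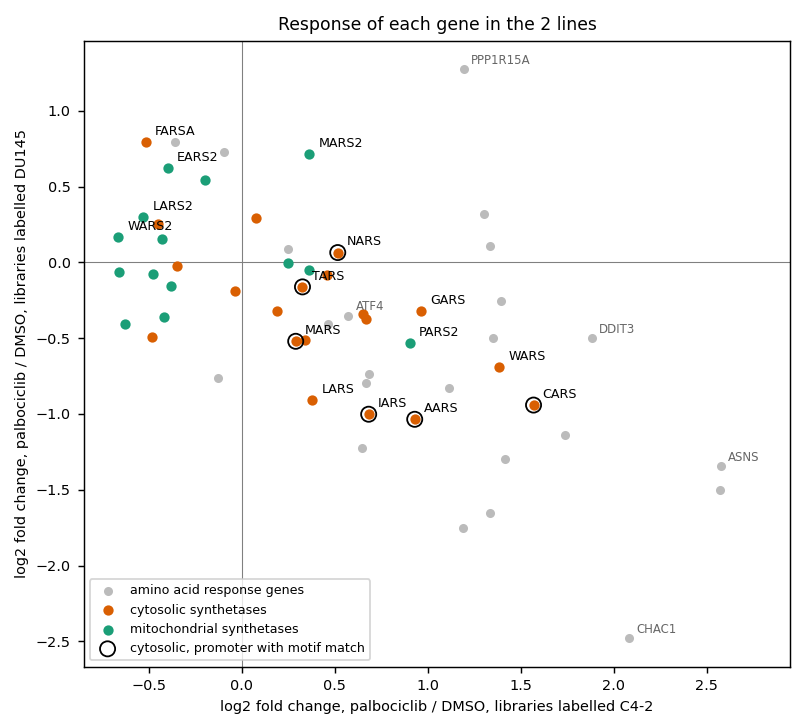
Log2 fold change of palbociclib over DMSO in the libraries labelled C4-2 (x axis) and DU145 (y axis) for cytosolic synthetases (orange), mitochondrial synthetases (green) and amino acid response genes (grey). Rings mark the 6 cytosolic genes with a TGATGNAA match in the promoter. Most orange points lie in the lower right quadrant, where the gene is higher in C4-2 and lower in DU145.

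Across the 20 cytosolic genes, the fold changes of the lines ran in opposite order (Pearson r = -0.658, Spearman rho = -0.627), and across the 14 mitochondrial genes tested in both they showed little relation (-0.088 and 0.055). The genes share the same libraries and are not independent replicates. The 6 cytosolic members with the element shown above were all called higher in C4-2, with a median of 0.60, and 5 of them lower in DU145, with a median of -0.73, NARS being the exception. Of the 10 with a promoter entry and no match, 4 were higher and 4 lower in C4-2 (median 0.02), and 3 higher and 6 lower in DU145 (median -0.26). Among all genes tested, 25.2% were higher and 26.6% lower in C4-2 and 28.8% and 29.2% in DU145. DARS, LARS, VARS and YARS had no promoter entry and are in neither count. Of these, DARS, LARS and YARS were also called higher in C4-2 and lower in DU145. Whether the element plays a part in the response was not tested. WARS and GARS, which rose by 1.38 and 0.96 in C4-2, are among those without a match in this window.

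Summed over the 20 cytosolic genes, C4-2 libraries held 5976 to 6054 CPM with palbociclib and 4058 to 4088 CPM with DMSO, and DU145 libraries 4647 to 4841 CPM against 6474 to 6596 CPM. The 16 mitochondrial genes summed to 453.1 to 476.5 CPM against 548.8 to 568.4 CPM in C4-2 and 799.8 to 820.7 CPM against 785 to 799.5 CPM in DU145. The cytosolic sum was 12.7 to 13.2 times the mitochondrial sum with palbociclib and 7.19 to 7.39 times with DMSO in C4-2. In DU145 this ratio lay at 5.66 to 6.05 after palbociclib and at 8.19 to 8.29 in the controls. The ratio thus moved up in one line and down in the other by far more than the libraries of a group differed. In bulk libraries a change in how many cells express a gene and a change in RNA per cell cannot be told apart.

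**Figure D4:**
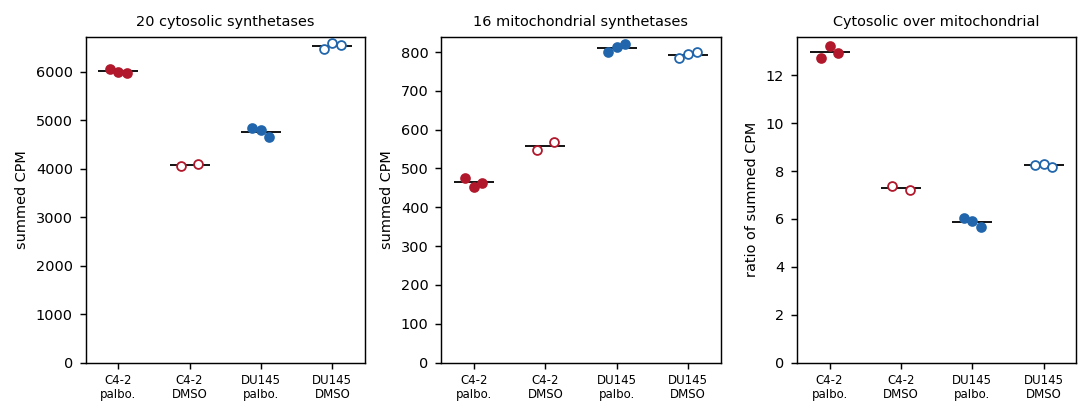
Summed CPM of the 20 cytosolic genes, of the 16 mitochondrial genes, and the ratio of the sums (y axes, from 0), by line and treatment (x axis), with 1 point per library and bars for group means. The ratio lies at 12.7 to 13.2 after palbociclib and 7.19 to 7.39 in the DMSO controls in libraries labelled C4-2, and 5.66 to 6.05 and 8.19 to 8.29 in DU145.

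Setting each cytosolic gene beside the mitochondrial gene for the same amino acid gave 17 pairs, since EPRS joins glutamate and proline and the phenylalanyl enzyme has 2 cytosolic subunits. In C4-2, 15 pairs could be compared and the cytosolic change was the higher one in 9, with a median difference of 0.91 in log2. The widest differences there were WARS over WARS2 (2.05), CARS over CARS2 (1.77) and AARS over AARS2 (1.56). In DU145 the cytosolic change was the lower one in 11 of 17, with a median difference of -0.49, led by CARS with CARS2 (-1.48), MARS with MARS2 (-1.23), LARS with LARS2 (-1.21) and EPRS with EARS2 (-1.13). Some pairs ran against this order in both lines. These were FARSA with FARS2 (-0.76 in C4-2 and 0.80 in DU145) and EPRS with PARS2 (-0.57 and 0.02). RARS with RARS2 (-0.28 and 0.34) and HARS with HARS2 (-0.04 and 0.62) did so too. FARSB with FARS2 (-0.73) and MARS with MARS2 (-0.07) ran against it in C4-2 only. NARS with NARS2 (0.14) did so in DU145 only, as did SARS with SARS2 (0.13), a pair not compared in C4-2.

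**Figure D5:**
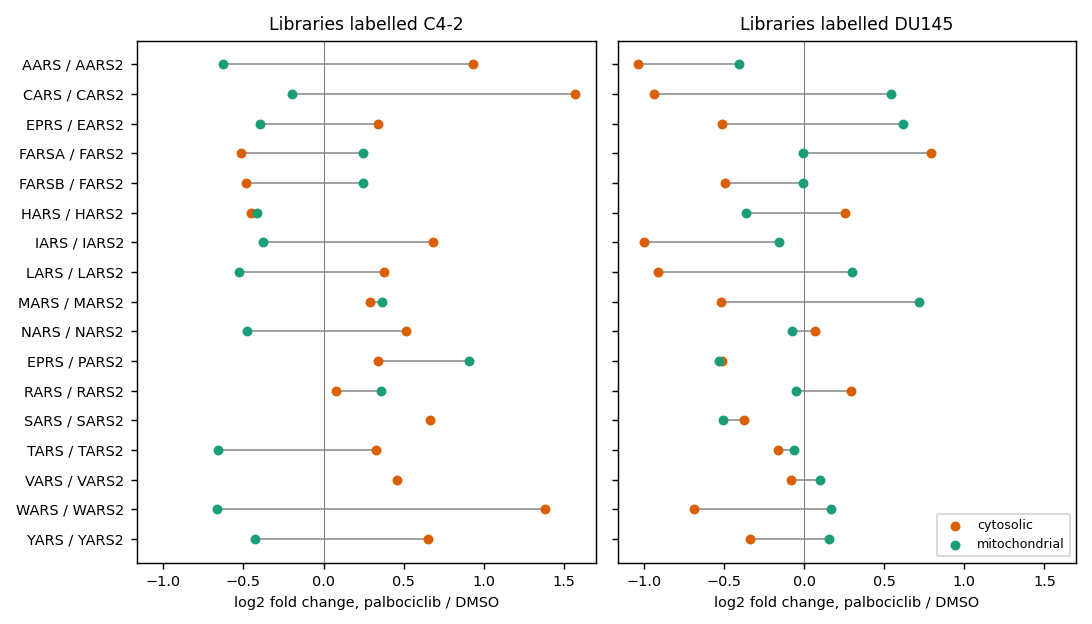
Log2 fold change of palbociclib over DMSO (x axis) of each cytosolic gene (orange) and the mitochondrial gene for the same amino acid (green), joined by a line, in libraries labelled C4-2 and DU145. Orange lies to the right in 9 of 15 pairs in C4-2 and to the left in 11 of 17 pairs in DU145.

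Synthetases fall into class I and class II by the fold of their catalytic domain. Of the 9 cytosolic genes of class I, 6 rose and 3 were not called in C4-2 (median 0.46), and 1 rose and 7 fell in DU145 (median -0.52). Of the 10 of class II, 6 rose and 4 fell in C4-2 (median 0.26), and 2 rose and 6 fell in DU145 (median -0.24). EPRS, with a domain of each class, is in neither count. The 4 cytosolic genes that fell in C4-2 are of class II. Over all genes tested, 25.2% rose and 26.6% fell in C4-2 and 28.8% and 29.2% in DU145, and no difference between the classes was tested.

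Of the cytosolic genes, 8 belong to the multisynthetase complex, a cytosolic assembly held together by the scaffold proteins AIMP1, AIMP2 and EEF1E1. Of these 8, 5 rose and 1 fell in C4-2 (median 0.24), and 1 rose and 6 fell in DU145 (median -0.42). Of the 12 outside it, 8 rose and 3 fell in C4-2 (median 0.58), and 2 rose and 8 fell in DU145 (median -0.33). The background over all genes tested was 25.2% higher and 26.6% lower in C4-2 and 28.8% and 29.2% in DU145. No difference between genes inside and outside the complex was tested. AIMP1 was at 0.18 in C4-2 (edgeR adjusted p = 0.0888) and 0.01 in DU145 (edgeR adjusted p = 0.933). AIMP2 fell by 0.36 in C4-2 (edgeR adjusted p = 0.046) and rose by 0.21 in DU145 (edgeR adjusted p = 0.0188), and EEF1E1 was at -0.18 and 0.14 (edgeR adjusted p = 0.567 and 0.377). The C4-2 groups of AIMP2 overlapped.

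Levels between genes were compared as CPM per kilobase of the gene length in the DU145 table. With DMSO in DU145, AARS stood highest at 208.7 ± 6.07 CPM per kilobase (SD, n = 3), followed by SARS at 136.6 ± 2.81, WARS at 106.4 ± 1.40, TARS at 105.5 ± 4.29 and EPRS at 100.4 ± 5.43. The order of WARS, TARS and EPRS was within their spread. With DMSO in C4-2, GARS stood highest at 87.2 ± 0.70 (SD, n = 2), followed by TARS at 81.2 ± 2.43 and AARS at 67.0 ± 2.51. Among mitochondrial enzymes IARS2 stood highest in both, at 53.1 ± 0.39 in DU145 and 46.7 ± 0.41 in C4-2. It is the only mitochondrial member within the first 12 of the 36 in either line. The tables were counted separately, so a level in one line is not set against the other.

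The amino acid response genes, a list that includes ATF4 and transcripts it is known to control, moved in the same direction as most cytosolic synthetases in each line. Of 24 genes, 23 were tested in C4-2, where 19 rose and 4 were not called, with a median of 1.19. In DU145 24 were tested, of which 4 rose and 18 fell, with a median of -0.67. For all genes tested the shares were 25.2% higher and 26.6% lower in C4-2 and 28.8% and 29.2% in DU145. ATF4 itself rose by 0.57 in C4-2 (SE 0.05, edgeR adjusted p = 3.67e-14) and fell by 0.35 in DU145 (SE 0.06, edgeR adjusted p = 5.82e-05). ASNS, asparagine synthetase, was at 10.8 ± 1.88 CPM with palbociclib and 1.69 ± 0.04 CPM in the DMSO libraries in C4-2 (2.58, SE 0.37), and at 6.25 ± 0.33 and 16.2 ± 1.16 CPM in DU145 (-1.34, SE 0.12). Its DMSO value in C4-2 rests on 6 and 5 counts, so the size of that rise is uncertain.

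The list members with the smallest adjusted p in C4-2 were amino acid transporters and a serine synthesis enzyme. SLC7A11, the cystine transporter, changed by 2.57, PSAT1 of serine synthesis by 1.74, SLC7A5, a transporter of large neutral amino acids, by 1.40 and its partner SLC3A2 by 1.34. In DU145 they were DDIT4 (-1.75) and SESN2 (-1.65), inhibitors of mTORC1 signalling, PSAT1 again (-1.14) and PPP1R15A (1.27), a subunit of the phosphatase that acts on eIF2α. PPP1R15A rose in both lines, by 1.19 in C4-2, with an interaction of 0.11 (edgeR adjusted p = 0.6).

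Elongation and release factors act with charged tRNA at the ribosome. Of the cytosolic ones, 8 of 9 were tested in each line. In C4-2 2 were higher and 5 lower (median -0.29), and in DU145 3 were higher and 3 lower (median 0.09). The shares over all genes tested were 25.2% higher and 26.6% lower in C4-2 and 28.8% and 29.2% in DU145. In such a short list the rises in C4-2 and both counts in DU145 are near those shares, so the genes named next are single genes. EIF5A (-0.32), GSPT1 (-0.40), EEF2 (-0.25) and EEF1A2 (-0.53) fell in C4-2. In DU145 EEF1B2 (-0.85) and EEF1A1 (-0.35) fell, and the release factor genes ETF1 (0.72) and GSPT1 (0.36) rose.

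Of the 10 mitochondrial translation factors, 9 were tested in C4-2, with 2 higher and 2 lower, and 10 in DU145, with 4 higher and 3 lower. In such a short list these counts are near the shares over all genes tested, 25.2% and 26.6% in C4-2 and 28.8% and 29.2% in DU145. TUFM, the mitochondrial elongation factor Tu, fell by 0.49 in C4-2, as did GFM1 (-0.36), while MTRF1L (0.60) and MTIF3 (0.64) rose. In DU145 MRRF (0.55) and MTRF1L (0.71) rose, and GFM2 (-0.66) and MTIF2 (-0.50) fell.

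Of 15 synthetase cofactors and quality control genes, 12 were tested in C4-2, with 2 higher and 1 lower, and 15 in DU145, with 4 higher and 5 lower. These shares are below the background of 25.2% and 26.6% in C4-2 and near that of 28.8% and 29.2% in DU145, so the genes named next are single genes and not a change of the list. DTD1, a deacylase that clears D-amino acids from tRNA, rose by 0.54 in C4-2 and fell by 0.39 in DU145. QRSL1, a subunit of the amidotransferase that makes glutaminyl-tRNA in mitochondria, where no glutaminyl synthetase is in the list, rose by 0.34 in C4-2 and 0.24 in DU145. The C4-2 groups of QRSL1 overlapped, at 42.2, 39.5 and 46.2 CPM against 40.1 and 24.2 CPM (edgeR adjusted p = 0.0359). In DU145 PTRH2 (0.81), a peptidyl-tRNA hydrolase, and GATC (0.65), another amidotransferase subunit, rose. SEPSECS (-0.97), the last enzyme of selenocysteinyl-tRNA synthesis, and DTD2 (-0.92) fell there.

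The epithelial keratin genes KRT8, KRT18 and KRT19 fell by 1.34, 1.42 and 1.56 in the libraries labelled C4-2, and 4 of 5 tested epithelial markers fell in DU145. The epithelial marker sum lay at 456.5 to 497.2 CPM after palbociclib and at 1186 to 1195 CPM in the DMSO controls in C4-2, and 2068 to 2213 CPM against 3221 to 3563 CPM in DU145. The shares called lower over all genes tested were 26.6% in C4-2 and 29.2% in DU145. The epithelial sum went down in both lines, and its part in the synthetase result was not tested.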

How the data were processed

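The authors deposited raw read counts per gene in 2 tables. Those labelled C4-2 are featureCounts 2.0.1 output, per the file headers, which record paired-read counting by gene over Ensembl 107 exons without a strand option. No header or label states how the deposited DU145 counts were made beyond the build (hg38, per the submitters' processing notes). Gene length is the value given in the DU145 table.

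Members and lists were chosen with earlier results of these data known. Counts were used as deposited, each line was fitted alone with edgeR 4.0.16 in R 4.3.3 (filterByExpr, TMM, glmQLFTest, Benjamini-Hochberg over all genes tested, threshold 0.05), and the interaction was fitted on identifiers in both tables. No test was run over members. CPM are counts over library totals. Intervals and limits cover counting error only, 3 counts for a value of 0. Values in every library are given for the 5 largest rises and falls among called members in each line, the 4 largest interactions in each direction, and VARS, VARS2, WARS, GARS and KARS (18 members). Other lists are named by up to 4 called genes with the smallest adjusted p per line, with AIMP1, AIMP2, EEF1E1, ATF4 and ASNS added. Alternatives were RLE size factors, library totals, no filter, a stricter filter (a mean of 30 counts), DESeq2 1.42.0, a replicate block and leaving out libraries. The fit was tested on simulated data. Promoters came from RefSeq, and exon overlaps from GENCODE on GRCh38.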

Additional observations from a re-analysis of the deposited data

Results flagged for a closer look

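For 24 members the response to palbociclib differed between the lines by the interaction test (edgeR, adjusted over 18139 genes), given here as the log2 fold change in DU145 minus that in C4-2. Among cytosolic members with the lower change in DU145, the difference was -2.48 for CARS, -2.05 for WARS, -1.93 for AARS, -1.65 for IARS, -1.26 for LARS, -1.25 for GARS, -1.01 for SARS and -0.95 for YARS. It was -0.82 for EPRS, -0.78 for MARS, -0.48 for DARS, -0.46 for TARS and -0.42 for NARS. PARS2 was the mitochondrial member with the lower change (-1.41). The change was higher in DU145 for FARSA (1.34), HARS (0.74) and KARS (0.36) of the cytosolic set. Of the mitochondrial set it was higher for EARS2 (1.05), LARS2 (0.86), WARS2 (0.86), CARS2 (0.78), TARS2 (0.63), YARS2 (0.62) and IARS2 (0.25), whose call was lost in 5 of 6 alternatives that kept all libraries. Line, depth and the set of genes counted differ together, so their parts cannot be told apart. The counts covered 61860 gene identifiers for C4-2 and 57167 for DU145. Whether the counter and its strand setting also differed is not known.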

How the results depend on the processing

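Of the called members, 20 of 28 in C4-2, 22 of 25 in DU145 and 20 of 24 in the interaction passed under every alternative run, and 0 called members reversed. With DESeq2, C4-2 mitochondrial calls were 0 higher and 4 lower. With library totals the C4-2 cytosolic median was 0.41. The interaction's cytosolic median was -0.69 with RLE size factors, -0.75 with library totals and -0.70 with the stricter filter, and its mitochondrial members with the lower change in DU145 numbered 2 with library totals and with the stricter filter, PARS2 and RARS2. Library totals moved the interaction's median over all genes to -0.12. Leaving out 1 library gave C4-2 cytosolic medians of 0.33 to 0.39, 1 to 2 mitochondrial rises in C4-2, DU145 mitochondrial medians of -0.037 to 0.013, interaction cytosolic medians of -0.81 to -0.60, and 1 to 2 mitochondrial members with the lower change. The DU145 mitochondrial median changed sign without palbociclib replicate 2 (0.013) and DMSO replicate 3 (0.011). The cause of these shifts was not tested. Sign changes of uncalled members were QARS in C4-2 (0.014 with library totals, -0.079 to 0.001 on leaving out 1 library), VARS in C4-2 (-0.98 with the block, -0.23 to 2.10 on leaving out 1 library), and in DU145 FARS2 (0.002 with RLE size factors and DESeq2, 0.012 without both libraries numbered 3, -0.064 to 0.067 on leaving out 1 library), RARS2 (-0.135 to 0.018 likewise), KARS (-0.053 to 0.008 likewise, 0.024 without both libraries numbered 3) and VARS (-0.181 to 0.009 likewise). In the interaction they were FARSB (-0.026 with RLE size factors and DESeq2, -0.084 with library totals, -0.031 with the stricter filter, -0.006 to 0.046 on leaving out 1 library), HARS2 (-0.019 with library totals) and VARS (0.97 with the block, -2.21 to 0.98 on leaving out 1 library). In the interaction, the call of IARS2 was lost in 5 of 6 alternatives that kept all libraries, as low as 0.15 with library totals, and KARS, TARS2 and WARS2 lost theirs in 1 or 2 alternatives each.

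The replicate block gave an interaction cytosolic median of -0.60 and removed the C4-2 call of YARS2 (-0.35, edgeR adjusted p = 0.0966). With it WARS2 was called higher in DU145 (0.16, edgeR adjusted p = 0.0476) and RARS in the interaction (0.26, edgeR adjusted p = 0.0349). Deviations of same-numbered libraries from their group means correlated at 0.007 and 0.029 in C4-2 and at 0.02, 0.036 and 0.128 in DU145, not all above 0.1. The highest value was that of the DU145 libraries numbered 3, which correlated at -0.087 to -0.05 with libraries of another number in the other group. With so few libraries per group, these values cannot show whether a number marks anything shared. At 2608851 to 3489659 counts per C4-2 library, SARS2 and VARS2 had too few counts to be tested there.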
